A study of Mus musculus with 17 samples.

Results

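The Bcl2 family apoptosis regulators described here are 10 genes, chosen by symbol, of 26422 genes in the single-cell tables of mouse small-intestinal organoids. Bcl2, Bcl2l1 and Mcl1 encode anti-apoptotic proteins, Bax and Bak1 the pore-forming effectors, and Bid, Bad, Bcl2l11, Bbc3 and Bmf the BH3-only proteins. All 10 were detected in each of 17 Seq-Well S3 libraries (barcoded beads in wells, transcripts counted by unique molecular identifiers, UMIs), with totals from 1095 UMIs for Bid to 17798 for Mcl1. The organoids were grown from crypts of female and male wild-type C57BL/6 mice, 1 to 6 months old, and each sample pooled gel domes with more than 1000 organoids. All groups were grown in EGF, Noggin and R-spondin 1 (ENR) with CHIR99021, a Wnt pathway activator. ENR+CV adds valproic acid and keeps organoids rich in stem cells, and ENR+CD adds DAPT, a Notch pathway inhibitor, in its place and directs cells towards Paneth cells. There were 2 ENR+CV libraries at day 0, 7 ENR+CD control libraries, and 8 libraries from ENR+CD with 160 nM KPT-330, which blocks the nuclear export receptor XPO1, at days 0.25, 1, 2, 3, 4 and 6. Control and KPT-330 had 2 libraries each at day 6, KPT-330 had 2 at day 3, and the other days had 1 library per condition. What replicates 1 and 2 share is not given in the labels, so the spread between libraries may be technical. Because most days lack replicates, p-values also rest on how the KPT-330 difference varies between days. For the day course they also rest on departures from a straight line.

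Bcl2 family proteins control the mitochondrial route of apoptosis. Anti-apoptotic members hold the effectors in check, BH3-only proteins bind the anti-apoptotic members or the effectors directly, and freed effectors open the outer mitochondrial membrane so that cytochrome c leaves and caspases are activated. In the intestinal epithelium, where cells are lost and replaced throughout life, the family sets how readily stem cells and their progeny die after damage. Much of this control acts on the proteins, by binding, cleavage, phosphorylation and turnover, which transcript counts do not measure.

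The 19877 kept cells held 3458887 to 12433109 UMIs per library, and 14 barcodes occurred in more than 1 library, with at most 1 shared by any pair. The summed level of 5 epithelial markers was 33.0 to 44.9 UMIs per 10000 in control libraries and 32.6 to 44.9 with KPT-330. The 5 tuft markers summed to at most 0.0385 and the 5 stromal markers to at most 0.0326. The 5 immune markers summed to 0.0245 to 0.315 in control libraries and 0.0263 to 0.701 with KPT-330, nearly all from Lyz2, a lysozyme gene, while Tyrobp was at 0 and Ptprc had 3 UMIs in all. Their part in the results was not tested. Scaling factors by the trimmed mean of M-values (TMM) ran from 0.701 to 1.204, and the lowest belonged to the KPT-330 library of day 6, replicate 1.

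The results turn most on Bcl2, Bbc3 and Bmf, so a promoter window of each is shown. Each is the 250 bases before a RefSeq start site (GRCm38.p6), printed 5′ to 3′ on the strand of the gene, with the letters TGACG or their reverse complement CGTCA in capitals, the core of the cyclic AMP response element (CRE) bound by ATF and CREB factors. Bcl2 lies at chr1:106538178-106714274 on the minus strand, Bbc3 at chr7:16308393-16318205 on the plus strand, and Bmf at chr2:118528757-118549687 on the minus strand (GENCODE, GRCm38). The windows are chr1:106714291-106714540 for Bcl2, chr7:16309333-16309582 for the most upstream of 3 Bbc3 starts, inside the first intron of a longer annotated transcript, and chr2:118549687-118549936 for the Bmf start at the gene's outer end.
Bcl2: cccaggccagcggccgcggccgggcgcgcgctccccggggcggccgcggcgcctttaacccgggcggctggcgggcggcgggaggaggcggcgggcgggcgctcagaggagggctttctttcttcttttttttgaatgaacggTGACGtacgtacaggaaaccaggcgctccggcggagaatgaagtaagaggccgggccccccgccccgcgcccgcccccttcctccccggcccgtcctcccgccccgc
Bbc3: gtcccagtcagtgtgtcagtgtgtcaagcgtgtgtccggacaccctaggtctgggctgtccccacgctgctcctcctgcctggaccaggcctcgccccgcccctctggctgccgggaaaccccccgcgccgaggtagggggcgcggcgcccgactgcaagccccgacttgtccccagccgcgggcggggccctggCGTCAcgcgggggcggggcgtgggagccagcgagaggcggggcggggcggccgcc
Bmf: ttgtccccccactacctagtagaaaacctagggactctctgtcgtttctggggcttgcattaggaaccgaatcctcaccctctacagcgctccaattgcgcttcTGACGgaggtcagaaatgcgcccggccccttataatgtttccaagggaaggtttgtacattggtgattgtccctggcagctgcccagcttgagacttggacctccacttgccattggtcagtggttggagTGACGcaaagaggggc
The CRE core lies 107 to 103 bases before the start of Bcl2, 55 to 51 before that of Bbc3 on the opposite strand, and at 146 to 142 and 16 to 12 before that of Bmf. On both strands, TGACG occurred in 17.7% of 32817 such windows of all genes, so its presence does not set these genes apart. Of the windows of the 10 genes only those printed held it, and Bbc3 and Bmf also have windows without it, which are not printed. Over the 18 windows of the 10 genes, the FOXO motif GTAAACA, in 3.16% of all windows, was in 1 window each of Bcl2l11 and Bbc3, the E-box CACGTG, in 6.02%, in 1 each of Bax and Bbc3, and the p53 response element decamer, in 7.12%, in 1 each of Bax and Bmf. The C/EBP-ATF composite TGATGCAAT, in 0.168% of all windows, was in none of the 18. A match of letters is a description and not a binding site.

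The first question was whether the family differs between KPT-330 and control organoids. UMIs were summed over all cells of a library and the 15 libraries of days 0.25 to 6 were compared in edgeR with a term for day. In sums over mixed cells, fewer cells of a type and less RNA per cell cannot be told apart. All 10 genes passed the filter on low counts, and 2 of the 10 passed the adjusted threshold of 0.05, against 29.2% of the 11777 genes tested. Bcl2 was lower, where 14.5% of all genes were lowered, and Bbc3 was higher, where 14.7% were raised. The share called among the members was below that of genes at large, so the results below are those of single genes. Levels between libraries are given as normalised CPM, a scale on which the UMI count of a gene is divided by the total of its library after TMM scaling.

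Among the anti-apoptotic genes, Bcl2 encodes the founding member, which sits on the mitochondrial and endoplasmic reticulum membranes. The 7 control libraries held 17.8 to 41.2 CPM of Bcl2, with a median of 26.9, and the 8 KPT-330 libraries 12.03 to 26.1, with a median of 18.0. The groups overlapped across days but not within a day. At day 0.25 the level was 17.8 in control and 12.03 under KPT-330, at day 1 it was 41.2 and 26.1, and at day 2 it was 33.1 and 25.4. At day 3 the control library held 30.2 and the KPT-330 libraries 13.9 and 18.9, and at day 4 the levels were 22.4 and 15.4. At day 6 the control libraries held 26.9 and 26.3 and the KPT-330 libraries 18.5 and 17.4. KPT-330 was therefore below control on 6 of 6 days, and the ENR+CV libraries at day 0, with 13.9 and 20.4, lay in the range of the KPT-330 libraries. The fitted log2 fold change was -0.60 with a standard error (SE) of 0.09 and a 95% confidence interval from -0.80 to -0.40 (edgeR, adjusted p = 0.000729), which is 0.659 of control. The gene passed in 19 of 19 settings, with log2 fold changes from -0.86 to -0.53.

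Mcl1 encodes a short-lived anti-apoptotic protein. Its control libraries ran from 136.7 to 181.5 CPM with a median of 142.8, the KPT-330 libraries from 140.0 to 223.0 with a median of 160.8, and the ENR+CV libraries held 119.6 and 121.4. The ranges of control and KPT-330 overlapped, while both ENR+CV libraries were below every library of either. The fit gave 0.19 with SE 0.08 (95% interval 0.02 to 0.35; edgeR, adjusted p = 0.0825), which did not pass, although without the KPT-330 library of day 6, replicate 2, it passed at 0.23 (adjusted p = 0.0261). Bcl2l1 encodes Bcl-xL. Its 7 control libraries spanned 28.1 to 54.4 with a median of 49.7 and its KPT-330 libraries 31.1 to 53.1 with a median of 46.4. The fit gave 0.02 with an interval from -0.25 to 0.30, which spans 0.

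**Figure D1:**
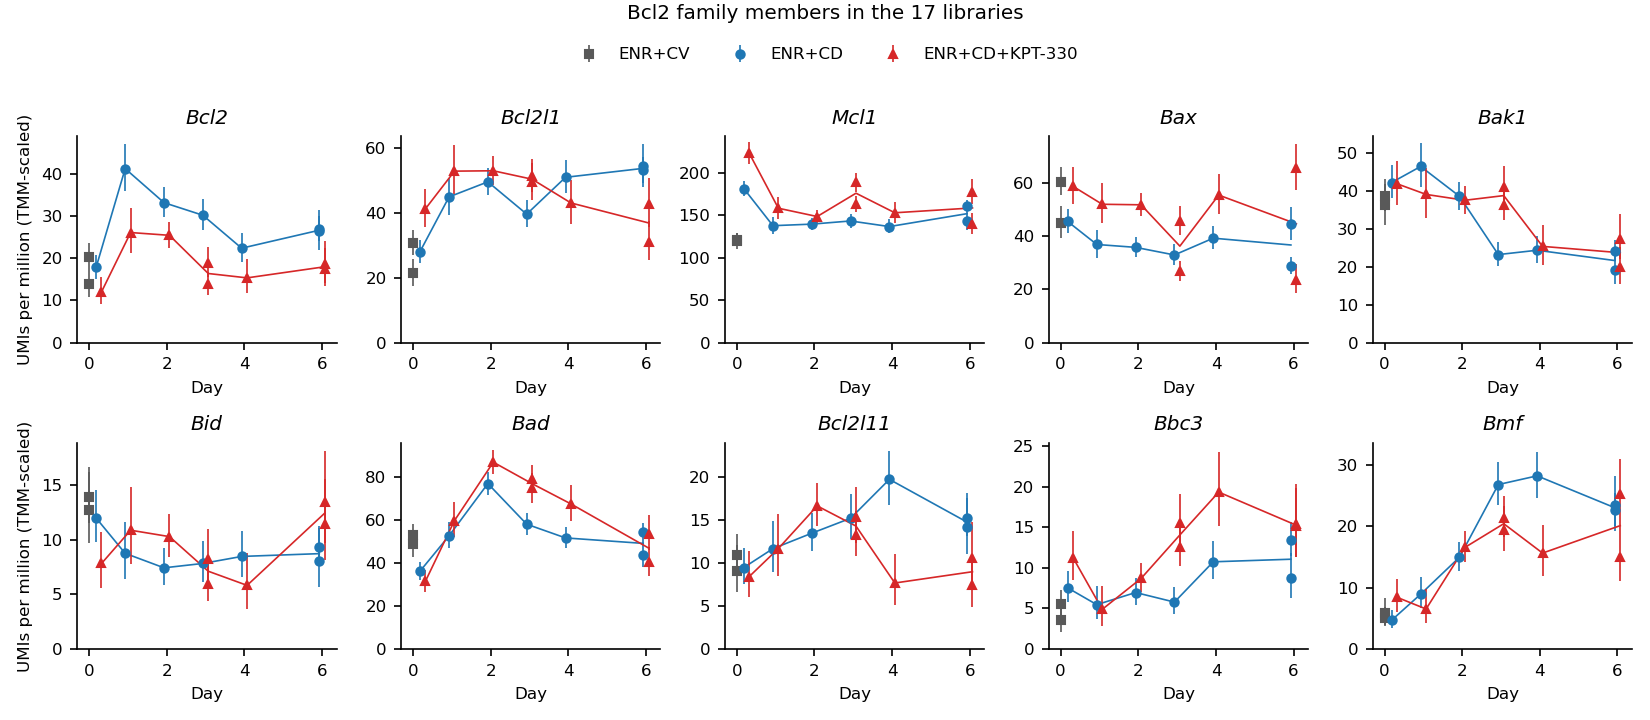
CPM on the TMM scale (vertical axes, from 0) for each of the 10 genes by day (horizontal axes), 1 point per library for ENR+CV, ENR+CD and ENR+CD with KPT-330, with bars for the 95% exact Poisson interval, which covers counting error only. Bcl2 lies lower with KPT-330 on each of the 6 days, and Bmf climbs from 5.06 and 5.83 at day 0 to between 22.6 and 28.2 in control from day 3 on.

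Of the effectors, Bax encodes a protein that moves from the cytosol to mitochondria when activated, and is a known target of p53. Control libraries ran from 28.8 to 45.4 CPM with a median of 36.8, KPT-330 libraries from 23.6 to 65.4 with a median of 51.8, and ENR+CV libraries held 45.0 and 60.3. The KPT-330 range enclosed that of control, because its libraries fell into a low pair and a higher set. The low pair was replicate 1 of day 3, with 26.8, and replicate 1 of day 6, with 23.6, while replicate 2 of those days held 45.5 and 65.4. The fit gave 0.38 with SE 0.19 (95% interval -0.04 to 0.80; edgeR, adjusted p = 0.155), and Bax did not pass. It passed at 0.42 with the replicate number as a block (adjusted p = 0.00489), at 0.37 with no filter on low counts (adjusted p = 0.00278) and at 0.48 without the KPT-330 library of day 6, replicate 1 (adjusted p = 0.0296), all in edgeR.

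In each of the 4 pairs of libraries with the same day and condition, Bax was lower in replicate 1. No other member had the same order in all 4 pairs. The median share of mitochondrial UMIs per cell was also higher in replicate 1 in these pairs, at 18.3% against 10.9% in ENR+CV, 15.3% against 11.7% with KPT-330 at day 3, and at day 6 10.4% against 7.37% in control and 16.5% against 6.31% with KPT-330. Beyond the fit with the replicate number as a block, the part of this in the Bax result was not tested. Bak1, whose protein sits on mitochondria, held 19.1 to 46.5 CPM in control libraries and 20.003 to 41.9 with KPT-330. Its fit gave 0.14 with an interval from -0.11 to 0.39.

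Among the BH3-only genes, Bbc3 encodes PUMA, which binds every anti-apoptotic member and is induced by p53 and by other stress-responsive factors. Its control libraries ran from 5.47 to 13.4 CPM with a median of 7.53, its KPT-330 libraries from 4.89 to 19.3 with a median of 13.9, and the ENR+CV libraries held 3.62 and 5.52. At day 0.25 control held 7.53 and KPT-330 11.2, at day 1 they held 5.47 and 4.89, and at day 2 6.96 and 8.69. At day 3 control held 5.78 and the KPT-330 libraries 12.6 and 15.5. At day 4 the levels were 10.7 and 19.3, and at day 6 control held 13.4 and 8.71 and KPT-330 15.3 and 15.1. KPT-330 was higher on 5 of 6 days and lower on day 1, where the libraries held 30 UMIs in control and 18 with KPT-330. The fit gave 0.60 with SE 0.16 and a 95% interval from 0.26 to 0.95 (edgeR, adjusted p = 0.0131), which is a 1.52-fold higher level. Bbc3 passed in 17 of 19 settings. It did not pass without day 3, at 0.46 (adjusted p = 0.0664), or with library size alone in place of TMM factors, at 0.34 (adjusted p = 0.113).

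Bcl2l11 encodes BIM, a FOXO3 target that binds all anti-apoptotic members. Its libraries held 9.47 to 19.7 CPM in control, with a median of 14.2, and 7.43 to 16.6 with KPT-330, with a median of 11.1, and the groups overlapped over most of their range. The fit gave -0.33 with SE 0.17 (95% interval -0.68 to 0.03; edgeR, adjusted p = 0.148), and with library size alone it passed at -0.60 (adjusted p = 0.0198). Bmf, whose protein is held at actin-based motors until released, held 4.68 to 28.2 in control and 6.52 to 25.1 with KPT-330, and gave -0.18 with an interval from -0.51 to 0.15. Bid, which caspase 8 cleaves to carry death receptor signals to mitochondria, held 7.43 to 11.98 and 5.82 to 13.4, and gave 0.08 with an interval from -0.27 to 0.43. Bad, which growth factor signals hold inactive by phosphorylation, held 36.2 to 76.9 and 31.5 to 86.9, and gave 0.15 with an interval from -0.06 to 0.36. For each of these genes the libraries of the conditions overlapped.

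The scaling matters for the direction of small differences. On the TMM scale the median log2 fold change of all genes was 0.00, with 50.5% of the 3439 called genes raised. With library size alone, an alternative chosen after seeing the data, the median was -0.26, and 8.55% of 5110 called genes were raised. There Mcl1, Bcl2l1, Bak1, Bid and Bad changed from positive to negative values. Relative to that median, Bcl2 stood at -0.60 and Bbc3 at 0.59.

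**Figure D2:**
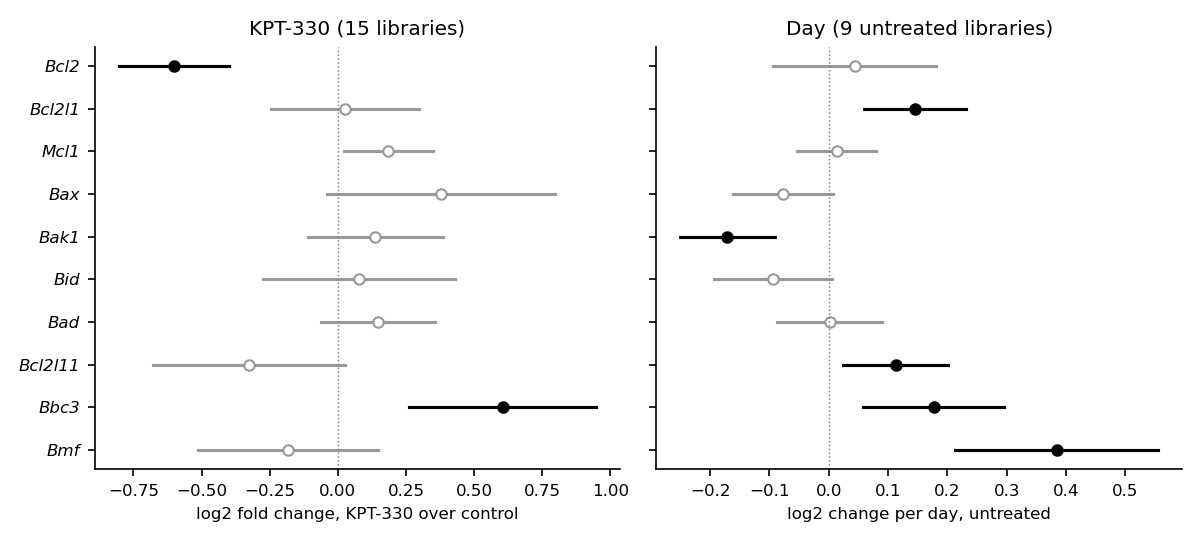
Fitted log2 fold change of KPT-330 over control (left, 15 libraries, term for day) and fitted log2 change per day in untreated organoids (right, 9 libraries) for the 10 genes, with 95% confidence intervals. Filled black points passed the adjusted threshold of 0.05: Bcl2 at -0.60 and Bbc3 at 0.60 on the left, and Bmf, Bbc3, Bcl2l1, Bcl2l11 and Bak1 on the right.

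The next question was whether the response on the first day differs from that on days 2 to 6. The difference between the 2 terms was tested in 1 fit. Bcl2 gave -0.59 with SE 0.19 over days 0.25 and 1 and -0.61 with SE 0.11 over days 2 to 6, and the difference of the terms was 0.02 with SE 0.22. Bbc3 gave 0.31 with SE 0.33 on the first day and 0.69 with SE 0.18 afterwards, a difference of -0.39 with SE 0.38. Bcl2l1 gave 0.42 with SE 0.21 and then -0.12 with SE 0.13, a difference of 0.54 with SE 0.25 (edgeR, adjusted p = 0.482). Bmf gave a difference of 0.54 with SE 0.38 and Bcl2l11 one of 0.35 with SE 0.38. The difference was 0.12 with SE 0.17 for Mcl1 and 0.10 with SE 0.46 for Bax, and it was -0.34 with SE 0.24 for Bak1, -0.32 with SE 0.37 for Bid and -0.18 with SE 0.22 for Bad. With library size alone the median difference of all genes moved from -0.02 to 0.25, and Bad turned to a positive value of 0.10. None of the 10 genes passed the test of the difference. In edgeR 0% of the 11777 genes did, with 1212 at an unadjusted p under 0.05, and in DESeq2 18 genes did. Days 0.25 and 1 have 1 library per condition each, and the difference in Bbc3 was within about 1 SE of 0. The libraries of days 0.25 and 1 all carry replicate number 1, while those of days 2 and 4 and the day 3 control carry number 2. The comparison is therefore partly confounded with replicate number.

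The day course in untreated organoids was fitted as a slope over the 9 untreated libraries, with the change from ENR+CV to ENR+CD between day 0 and day 0.25. The untreated libraries of days 0.25 and 1 carry replicate number 1, and those of days 2, 3 and 4 number 2. A step between day 1 and day 2 therefore cannot be told apart from the replicate number. In this fit 5 of the 10 genes passed the threshold, against 38.5% of the 12493 genes tested, a share not far from the background. Bmf, Bbc3, Bcl2l11 and Bcl2l1 rose, where 18.6% of all genes were raised, and Bak1 fell, where 19.9% were lowered. The Bmf libraries held 5.83 and 5.06 CPM in ENR+CV, 4.68 at day 0.25, 8.93 at day 1, 14.9 at day 2, 26.8 at day 3, 28.2 at day 4, and 22.6 and 23.4 at day 6. The level was thus low through day 0.25 and highest at days 3 and 4. The share of stem I-like cells, the marker-defined class with the most Bmf (described with the classes), moved with it, from 0% and 0.205% of cells at day 0 and 0.351% at day 0.25 to 4.96% at day 1, 19.9% at day 2, 25.3% at day 3, 29.9% at day 4, and 13.97% and 23.3% at day 6. Its part in the slope was not tested. The slope was 0.38 log2 units per day with SE 0.08 (95% interval 0.21 to 0.55; edgeR, adjusted p = 0.00457).

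Bak1 went the other way. It held 36.2 and 38.8 CPM in ENR+CV, 42.2, 46.5 and 38.6 at days 0.25, 1 and 2, 23.2 and 24.4 at days 3 and 4, and 24.2 and 19.1 at day 6. All 4 libraries of days 3 to 6 were below all 5 earlier ones. Its slope was -0.17 with SE 0.04 (edgeR, adjusted p = 0.00538). Bcl2l1 held 21.5 and 30.7 in ENR+CV, 28.1 at day 0.25 and 39.7 to 54.4 from day 1 on, with a slope of 0.15 and SE 0.04 (edgeR, adjusted p = 0.0145). Bbc3 had a slope of 0.18 with SE 0.05 (edgeR, adjusted p = 0.0249) and Bcl2l11 one of 0.11 with SE 0.04 (edgeR, adjusted p = 0.0465). Paneth-like cells, where Bbc3 was highest and Bak1 lowest, went from 0.565% and 0.683% of cells at day 0 to 29.4% and 23.0% at day 6, and their part in these slopes was not tested either.

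The slopes of Bcl2 at 0.04, Mcl1 at 0.01, Bad at 0.00, Bax at -0.08 and Bid at -0.09 did not pass. The calls depend on day 0: without the ENR+CV libraries Bak1 alone passed, at -0.21 (edgeR, adjusted p = 0.0222), while Bmf stood at 0.31 (adjusted p = 0.0655), Bcl2l1 at 0.09, Bbc3 at 0.14 and Bcl2l11 at 0.09. Leaving out either ENR+CV library, or the control library of day 6, replicate 1, left Bmf, Bcl2l1 and Bak1 as the 3 genes that passed.

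The cells were clustered with the members and other apoptosis genes kept out of the variable genes, and clusters were named from marker lists that the study had derived from these same samples. The names are therefore given as likenesses. Each cluster took the class with its highest mean marker score, and some scores were close. A cluster of 1153 early enterocyte-like cells scored 1.651 for that class and 1.642 for enterocyte. Another, of 543 early Paneth-like cells, scored 1.287 for that class and 1.201 for early secretory. The levels below are UMIs per 10000 UMIs of a class in untreated libraries with at least 20 of its cells, described without a test, because the classes come from the same cells. Libraries with fewer cells of a class do not enter, so the classes rest on different days.

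Bcl2 was highest in early secretory-like cells, at 0.748 ± 0.219 (SD, n = 4 libraries), and in enteroendocrine-like cells, at 0.743 ± 0.473 (SD, n = 8). The order of these neighbours was even, with the first above the second in 2 of 4 shared libraries, where the means were 0.748 and 1.02. Enteroendocrine-like cells held 0.478 at day 0.25, 1.71 at day 1 and 1.11 at day 2. They then held 0.764 at day 3, 0.296 at day 4 and 0.355 and 0.459 at day 6. Their SD thus spans a course over days, along which the 2 clusters joined in this class also changed in proportion. Early Paneth-like cells held 0.346 ± 0.0576 (SD, n = 5) and the stem III-, stem I- and stem II-like classes means of 0.310, 0.286 and 0.264, which did not separate beyond their spread. Paneth-like cells held 0.192 ± 0.0661 (SD, n = 5) and early enterocyte-like cells 0.0631 ± 0.0359 (SD, n = 6).

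Enterocyte-like cells held 1 Bcl2 UMI among 4734541 UMIs in 5 libraries. The 4 libraries with a count of 0 allow levels up to 0.0149 to 0.0742 per 10000, taking 3 counts as the limit. The other anti-apoptotic genes were placed differently. Mcl1 was highest in enterocyte-like cells, at 1.98 ± 0.203 (SD, n = 5), and in early enterocyte-like cells, at 1.89 ± 0.357 (SD, n = 6), with the first above the second in 0 of 2 shared libraries. It was lowest in early Paneth-like cells, at 1.12 ± 0.0483 (SD, n = 5). Bcl2l1 was highest in stem I-like cells, at 0.891 ± 0.212 (SD, n = 6), above enteroendocrine-like cells in 5 of 6 shared libraries, and lowest in early Paneth-like cells, at 0.227 ± 0.0385 (SD, n = 5).

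The effectors also differed in place. Bak1 fell in order from enterocyte-like cells, at 0.775 ± 0.0981 (SD, n = 5), through early enterocyte-like cells, at 0.585 ± 0.102 (SD, n = 6), to Paneth-like cells, at 0.0912 ± 0.0257 (SD, n = 5). Early enterocyte-like cells were above the next class, stem III-like cells, in 6 of 6 shared libraries. Bax was highest in stem III-like cells, the class defined by cell-cycle genes, at 0.610 ± 0.122 (SD, n = 9), and lowest in early Paneth-like cells, at 0.247 ± 0.0299 (SD, n = 5). The stem II-, early secretory- and enteroendocrine-like classes between, with 0.561, 0.547 and 0.544, did not separate.

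Among the BH3-only genes, Bmf and Bcl2l11 were highest in stem I-like cells, the class marked by Lgr5, Smoc2 and Axin2. Bmf stood there at 0.541 ± 0.205 (SD, n = 6), above enteroendocrine-like cells, the next class at 0.299 ± 0.115 (SD, n = 8), in 6 of 6 shared libraries. Within stem I-like cells Bmf held 0.220 at day 1, 0.363 at day 2, 0.609 at day 3, 0.765 at day 4, and 0.639 and 0.648 at day 6. Bcl2l11 stood at 0.417 ± 0.0972 (SD, n = 6) in stem I-like cells, above stem III-like cells, at 0.248 ± 0.125 (SD, n = 9), in 6 of 6 shared libraries, and was lowest in early Paneth-like cells, at 0.0256 ± 0.0109 (SD, n = 5).

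Bbc3 was highest in Paneth-like cells, at 0.131 ± 0.0427 (SD, n = 5), and lowest in stem III-like cells, at 0.0456 ± 0.0306 (SD, n = 9), with neighbours in the order inside each other's spread. Bad was highest in enterocyte-like cells, at 1.295 ± 0.157 (SD, n = 5), above early enterocyte-like cells in 2 of 2 shared libraries, and lowest in Paneth-like cells, at 0.368 ± 0.111 (SD, n = 5). Bid ran from 0.141 ± 0.0484 (SD, n = 6) in early enterocyte-like cells to 0.0235 ± 0.0236 (SD, n = 5) in enterocyte-like cells, which rest on 17 UMIs.

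**Figure D3:**
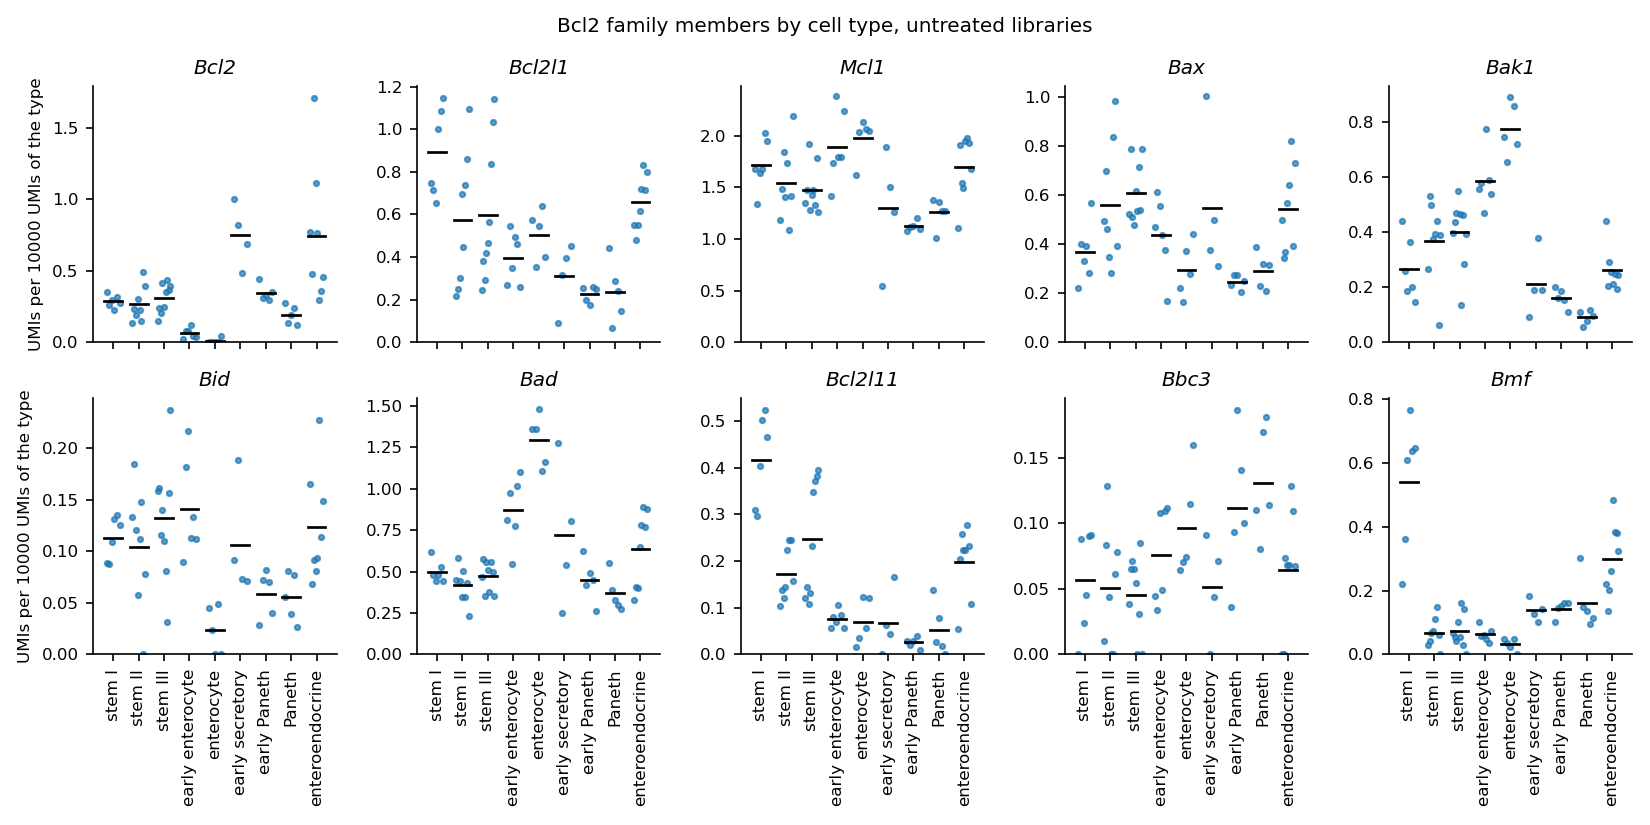
UMIs per 10000 UMIs of each marker-defined class (vertical axes, from 0) for the 10 genes in untreated libraries with at least 20 cells of the class, 1 point per library, with a bar at the mean. Bcl2 is highest in the early secretory and enteroendocrine classes and near 0 in enterocytes, where Mcl1, Bak1 and Bad are highest, and Bmf and Bcl2l11 are highest in stem I.

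The KPT-330 comparison was repeated within 9 classes, each with 3 to 6 days on which both conditions had at least 20 cells. Of 66 fits of a member in a class, 10 had an unadjusted p under 0.05 and 0 passed the adjusted threshold in edgeR, where DESeq2 called 1, Bcl2 in enteroendocrine-like cells. Of all genes tested, 4.78% passed in stem I-, 1.15% in stem II-, 0.582% in stem III-, 1.5% in early enterocyte-, 2.5% in enterocyte-, 0.436% in early secretory-, 5.76% in early Paneth-, 2.06% in Paneth- and 2.52% in enteroendocrine-like cells. At the unadjusted cut, the lowest share of all genes was 602 of 6653, in early secretory-like cells. The highest was 1705 of 9151, in early Paneth-like cells, so the count of 10 does not set the members apart. Bcl2, tested in 7 classes, had negative values in 6, with a median of -0.23, and Bax, tested in 9, had positive values in 9, with a median of 0.43, or in 8 of 9 with library size alone. The median of all genes in these fits lay between -0.01 and 0.01.

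In enteroendocrine-like cells, summed per day, Bcl2 stood at 45.5 CPM in control and 54.3 under KPT-330 at day 0.25, at 185.6 and 128.7 at day 1, and at 112.3 and 114.2 at day 2. It then stood at 75.8 and 14.4 at day 3, at 27.4 and 5.41 at day 4, and at 39.8 and 14.4 at day 6. The values were apart from day 3 on, and the KPT-330 value of day 4 rests on 2 UMIs. The class joins 2 clusters, 1 of 1242 cells led by Neurog3 and Neurod1, genes of endocrine progenitors, and 1 of 1178 cells led by Cck, Gcg and Chgb, genes of hormone-producing cells, and their proportions moved with day and treatment. The Neurog3 cluster held 94.3% (control) and 95.3% (KPT-330) of the class at day 1, and its shares were 62.5% and 56.6% at day 3, 56.7% and 13.99% at day 4, and 29.5% and 6.38% at day 6. In it, the control level of Bcl2 at day 3 was 1.05 UMIs per 10000 beside 0.164 under KPT-330, and the levels stood at 0.3503 and 0.206 at day 4, where KPT-330 rests on 1 UMI. At day 6 it stood at 0.639 in control, while KPT-330 had 0 UMIs among 47130, which allows a level of up to 0.637. In the hormone cluster it stood at 0.294 and 0.110 at day 3, 0.234 and 0.0339 at day 4, and 0.267 and 0.116 at day 6. The KPT-330 value was thus the lower one in each cluster on days 3 and 4, within few counts on day 4, and in the hormone cluster on day 6. This split was chosen after seeing the data and has no test. The fit gave -0.997 with SE 0.32 (edgeR, adjusted p = 0.153), which did not pass. DESeq2 gave -1.15 (adjusted p = 0.0248), edgeR with no filter on low counts -1.03 (adjusted p = 5.06e-06), and edgeR on cells assigned by their highest marker score -1.57 (adjusted p = 0.00268). Bcl2 gave -0.82 with SE 0.41 in stem II-like cells and 0.04 with SE 0.25 in early secretory-like cells.

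Bax in enteroendocrine-like cells was higher with KPT-330 on 6 of 6 days, at 32.5 in control and 117.5 under KPT-330 at day 0.25, 39.9 and 73.5 at day 1, and 57.1 and 85.3 at day 2. It stood at 63.5 and 80.7 at day 3, 75.9 and 137.9 at day 4 and 54.8 and 86.4 at day 6. The fit gave 0.76 with SE 0.28 (edgeR, adjusted p = 0.242). It passed with the replicate number as a block, at 0.78 (edgeR, adjusted p = 0.000246), with no filter on low counts, at 0.74 (edgeR, adjusted p = 0.000407), and without the KPT-330 library of day 3, replicate 1, at 0.91 (edgeR, adjusted p = 0.0109). The remaining values of Bax ran from 0.07 with SE 0.22 in Paneth-like cells to 0.87 with SE 0.28 in early secretory-like cells (edgeR, adjusted p = 0.262).

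Other members with an unadjusted p under 0.05 in a class were Bak1 in enterocyte-like cells, at -0.45 with SE 0.16, Bad in the same cells, at -0.33 with SE 0.15, Bcl2l1 in early enterocyte-like cells, at 0.50 with SE 0.17, and Mcl1 in early Paneth-like cells, at 0.21 with SE 0.10. Bbc3 had enough counts in 3 classes, and gave 0.43 in Paneth-, 0.41 in early Paneth- and -0.37 in early enterocyte-like cells. Bcl2l11 could be tested in 5 classes, from -0.17 with SE 0.31 in stem III-like to 0.54 with SE 0.41 in stem II-like cells, with 0.21 and SE 0.19 in stem I-like cells, where it is highest. Bmf, tested in 4, ran from -0.17 with SE 0.28 in early Paneth-like to 0.33 with SE 0.17 in stem I-like cells, and Bid, tested in 2, gave 0.45 with SE 0.35 in early Paneth- and -0.27 with SE 0.30 in early enterocyte-like cells. None of these values passed the adjusted threshold.

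**Figure D4:**
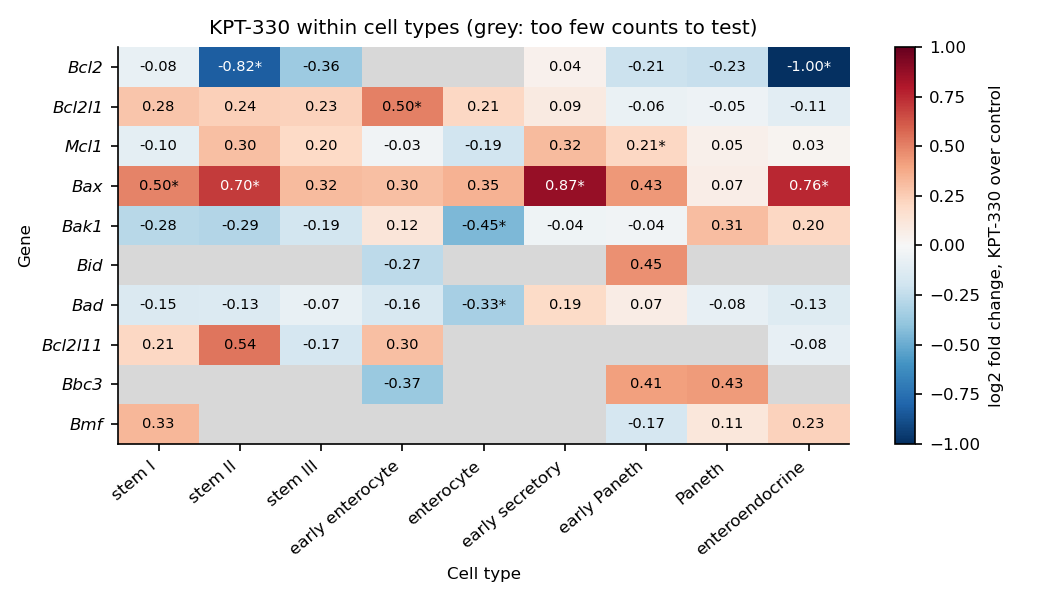
Log2 fold change of KPT-330 over control for each member (rows) in each marker-defined class (columns), with an asterisk where the unadjusted p was under 0.05 and grey where counts were too few to test. The Bax row is positive throughout, from 0.07 to 0.87, the Bcl2 row is negative in 6 of 7 classes, and none of the values passes the adjusted threshold.

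The make-up of the organoids moved with treatment. Stem I-like cells, where Bmf, Bcl2l11 and Bcl2l1 were highest, made up 25.3% of control cells and 5.595% and 10.8% of KPT-330 cells at day 3, 29.9% and 9.98% at day 4, and 13.97% and 23.3% in control against 1.42% and 7.29% with KPT-330 at day 6. Enteroendocrine-like cells, a class with high Bcl2, made up 17.1% and 5.595% at day 2, 23.7% against 11.01% and 9.64% at day 3, and 16.4% and 11.2% at day 4. At day 6 they made up 20.7% and 20% in control and 7.10% and 23.3% under KPT-330. Paneth-like cells, where Bbc3 was highest, accounted at day 3 for 9.16% of the control library and for 23.6% and 16.2% of the KPT-330 libraries, with shares of 19.4% and 34.4% at day 4, and 29.4% and 23.0% against 51.7% and 41.3% at day 6. A ratio at a common make-up, chosen after seeing the data, weighted the classes of both conditions alike on each day, in UMIs per 10000 without TMM scaling. It used 5 classes at days 0.25 and 4, 6 at days 1 and 6, 7 at day 3 and 9 at day 2. The ratio at each condition's own make-up, given first below, rests on the same classes and not on whole libraries. In the fit without TMM factors the median log2 fold change of all genes was -0.26, and none is given here at the common make-up. The mean log2 ratio of Bcl2 over 6 days went from -0.81 ± 0.26 (SD over days) to -0.51 ± 0.23 and was negative on 6 of 6 days. At the common make-up its value nearest 0 was -0.09, at day 2. For Bax the mean log2 ratio went from 0.22 ± 0.24 to 0.42 ± 0.15 (SD over days) and was then positive on 6 of 6 days. For Bbc3 it went from 0.32 ± 0.36, positive on 5 of 6 days, to 0.25 ± 0.33, positive on 4, so both values were within 1 SD of 0. For Bcl2l11 it went from -0.58 ± 0.74 to 0.02 ± 0.46 and for Bmf from -0.38 ± 0.67 to 0.10 ± 0.32, and these values too were within 1 SD of 0 under either weighting. These SDs are the spread of the daily ratios and not the error of a mean.

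Genes around the family were taken from lists of the rest of the family, the mitochondrial and caspase steps, inhibitors of apoptosis, death receptors, upstream transcription factors and turnover of the Mcl1 protein. Of 55 such genes 51 could be tested in all cells, of which 11 rose and 3 fell with KPT-330, against 14.7% and 14.5% of all genes. In the rest of the family, 1 of 10 rose and 2 fell, with a median log2 fold change of 0.10 beside 0.00 for all genes. Pmaip1, which encodes the BH3-only protein NOXA, an Mcl1 antagonist, rose by 1.06 with SE 0.23 (edgeR, adjusted p = 0.00754). Bcl2l12 stood at -0.64 with SE 0.21 and Bok, a further effector-like gene, at -0.33 with SE 0.11, and both fell.

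Of the death receptor list 4 of 9 rose and 0 fell, with a median of 0.22, although 1 of the 4, Ripk1, was at -0.04 with library size alone. Fas, the receptor for Fas ligand, rose by 1.24 with SE 0.28, Tnfrsf21 by 0.70 with SE 0.10, Tnfrsf10b, the mouse TRAIL receptor, by 0.48 with SE 0.14, and Ripk1 by 0.22 with SE 0.06. Of 8 transcription factors 3 rose and 1 fell, with a median of 0.21. Ddit3 (CHOP) rose by 1.11 with SE 0.12 and Atf4 by 0.41 with SE 0.11, both of the integrated stress response, Foxo3 rose by 0.23 with SE 0.08 but was at -0.03 with library size alone, and Trp53 stood at -0.47 with SE 0.08 and fell. Of 5 inhibitors of apoptosis Birc3 (cIAP2) rose, by 0.84 with SE 0.19. Of 16 genes of the mitochondrial and caspase list 2 rose, Vdac2 by 0.31 and Apaf1, the scaffold of the apoptosome, by 0.28, and none of the 3 Mcl1 turnover genes passed. Of these 14 called genes, 8 also passed in the same direction with library size alone, where the median of all genes was -0.26, and Tnfrsf10b, Atf4, Vdac2 and Apaf1 were positive but did not pass, at 0.23, 0.15, 0.05 and 0.02.

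**Figure D5:**
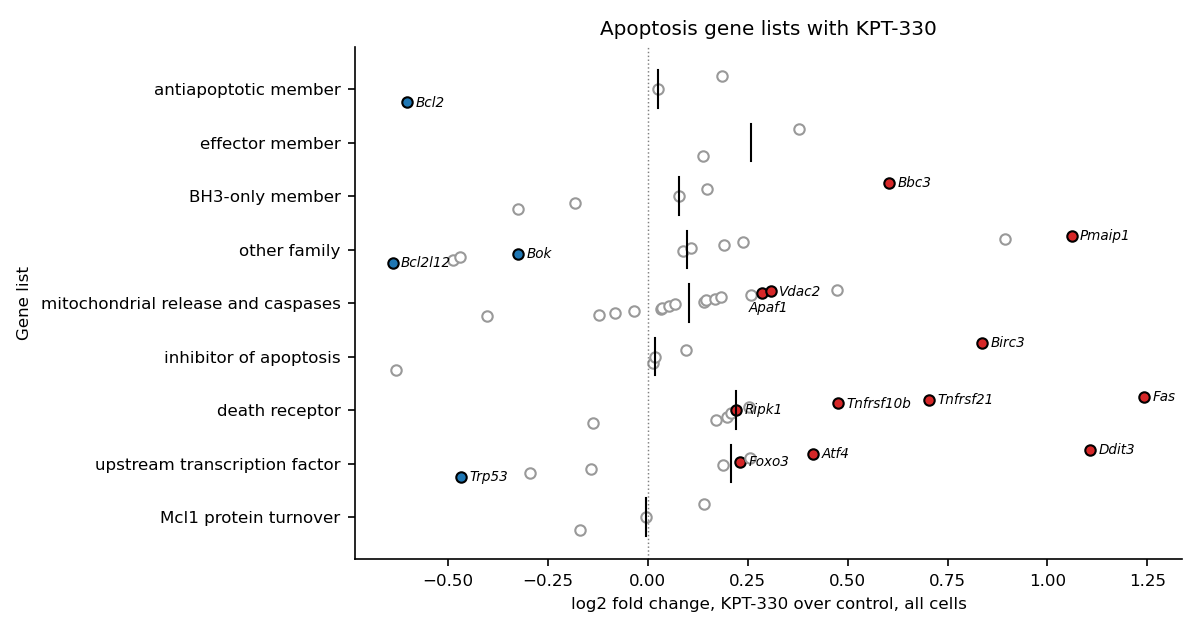
Log2 fold change of KPT-330 over control in all cells for the tested genes of each apoptosis list, with filled red points for genes that rose, filled blue points for genes that fell, open points for those that did not pass, and a bar at the list median. The list with the most genes raised is that of death receptors, with 4 of 9 on the TMM scale, of which Ripk1 turns negative with library size alone, as does Foxo3 among the transcription factors.

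Along the day course in untreated organoids 7 of these 51 genes rose and 11 fell, where 18.6% of all genes were raised and 19.9% lowered, so the counts do not set these genes apart. The mitochondrial and caspase list had 0 of 16 raised and 6 lowered, with a median slope of -0.08 per day beside 0.00 for all genes. Aifm1, Vdac1, Dffa and Vdac2 fell, by 0.23, 0.22, 0.23 and 0.12 per day. Within classes, Ddit3 rose with KPT-330 in Paneth-like cells, by 0.70 with SE 0.13, and in early Paneth-like cells, by 0.98 with SE 0.13. In early Paneth-like cells Pmaip1 also rose, by 1.17 with SE 0.26, and Foxo3, by 0.46 with SE 0.13, while Bnip3, a mitophagy receptor, stood at -1.32 with SE 0.30 and fell.

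The genes whose pattern over the 17 libraries was most like that of a called member were sought among 10529 genes by the root mean square difference of centred log2 levels. For Bcl2 these were Hipk2 at 0.276, Homer3 at 0.277 and Slco5a1 at 0.283, beside an SD of Bcl2 itself of 0.485. For Bbc3 they were Atf4 at 0.281, Pvr at 0.304 and Cln6 at 0.306, beside an SD of Bbc3 of 0.688.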

How the data were processed

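UMI counts per gene and barcode had been made by the authors before they were deposited, with bcl2fastq, STAR alignment to mm10 and the Drop-seq pipeline, of which the sources give more than 1 version, and without normalization. The 19877 cells that the authors kept, of 26229 barcodes, were used. Doublet calls were not repeated.

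The analysis used R 4.3.3 with edgeR 4.0.16, Seurat 5.3.0, sctransform 0.4.2, limma 3.58.1 and DESeq2 1.42.0, and plotted in Python 3.11.15 with matplotlib 3.10.9. SCTransform selected 3000 variable genes, of which 14 genes of the apoptosis lists were removed. Louvain clustering at a resolution of 0.45 used 9 components and 20 neighbours of each cell, and was repeated on the secretory clusters with 14 components at 0.3, giving 17 clusters that were named from the study's markers. Counts were summed per library, or per library and class with at least 20 cells, since cells are not replicates. Quasi-likelihood tests in edgeR used TMM factors, filterByExpr, day as a factor (a slope for the day course) with p-values adjusted over all tested genes by Benjamini-Hochberg and a threshold of 0.05.

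All 10 members are named in every comparison. Other listed genes are named where they passed, at most 4 per list by the smallest p, and like genes are the 3 nearest for members that passed with KPT-330. The members, lists and comparisons were chosen with earlier results of these data known. On simulated counts of the 11777 genes of the KPT-330 comparison, edgeR recovered 54% of genes changed 1.5-fold and 94% of those changed 2-fold, with 5.13% of calls wrong. For the first day against days 2 to 6 it recovered 44% at 2-fold and 83% at 4-fold, with 7.97% of calls wrong. There 15.2% of DESeq2 calls were wrong. For the day course edgeR recovered 83% of genes changed 4-fold over 6 days, with 6.42% of calls wrong. Alternatives were other scalings, filters, clusterings and class assignments, DESeq2, left-out libraries and days, and the replicate number as a block. Gene positions are from GENCODE vM21 and promoter sequences from RefSeq.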

Additional observations from a re-analysis of the deposited data

Results flagged for a closer look

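Mcl1, the short-lived anti-apoptotic member, had opposite signs with KPT-330 in different classes. It was higher in early secretory-like cells on 3 of 3 days (0.32) and lower in enterocyte-like cells on 4 of 4 days (-0.19), which makes a difference of 0.51 on the log2 scale. Early Paneth-like cells, higher on 4 of 4 days (0.21), differed from enterocyte-like cells by 0.39. Early secretory-like cells were compared on days 0.25, 1 and 2, enterocyte- and early Paneth-like cells on days 2, 3, 4 and 6. The first difference is therefore partly confounded with day, and neither difference was tested. With library size alone, Mcl1 was positive in 4 of 9 classes, beside 6 of 9 on the TMM scale. Of 90 pairs of a member and a class, 10 were higher and 7 lower on every day compared. No count over all genes is set beside these, so they are not read as a result about the members.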

How the results depend on the processing

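Of the refitted log2 fold changes of members, 1161 stayed on their side of the threshold, 14 passed it and 15 no longer did, and no called value changed sign. With KPT-330 in all cells, 2 members and 3439 genes passed. Without day 3 these were 1 (Bcl2) and 2010, without day 4 2247 genes passed, and leaving out single libraries gave 2 to 3 members and 2750 to 3750 genes. For the first day against days 2 to 6, genes passing went from 0 to 254 with no filter on low counts, to 18 with DESeq2 and to 1 without day 6, while leaving out single libraries gave 0. On the day course, 5 members and 4807 genes passed, 1 and 2072 without the ENR+CV libraries, and 3 to 5 members and 3626 to 4627 genes with single libraries left out. With library size alone 37.9% of genes called on the day course were raised, beside 48.3%. The number of members passing within a class went from 0 to 1 in stem I-like cells (Bcl2) and in early secretory-like cells (Bax) with cells assigned by marker score. In enteroendocrine-like cells it went to 2 with no filter, to 1 with DESeq2, with marker scores and with the replicate block, and to 0 to 1 with single libraries left out, and it stayed at 0 in the other classes with single libraries left out. Beyond what the construction of each setting shows, the cause was not tested.

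The replicate number was tried as a block. At day 6, the 1 day with both numbers in both conditions, the differences between replicates 1 and 2 correlated at 0.52 across 10529 genes. With so few pairs, and with their meaning not given in the labels, the numbers do not enter the main fits. The block gave 3 members (Bax added) and 3695 genes with KPT-330 in all cells, 0 members for the first day against later days, 1 in enteroendocrine-like cells, and 0 in the other classes where it could be fitted. It was not run in stem II- and early secretory-like cells or on the day course. Fits with at least 50 cells were not possible in those 2 classes, nor a resolution of 0.8 in stem II-like cells, nor some left-out libraries, and goblet-like cells (115) were too few for any fit. Depth limits Bid and Bbc3, with 22 to 121 and 18 to 166 UMIs per library, and their values within classes rest on 2 and 3 fits.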
